A study of Mus musculus with 5 samples.

Results

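Zbtb16, Cadm1 and Sik3 are 3 genes of mouse chromosome 9 that lie in one stretch, in the order Sik3, Cadm1, Zbtb16. Their probe sets were taken as every probe set that the array's annotation gives exactly 1 symbol, equal to one of these names. The choice gave 11 of 45101 probe sets, of which 3 read Zbtb16, 4 read Cadm1 and 4 read Sik3. The genes were chosen by their differences between groups on these same arrays, where they were higher in MSI2-inducible cells. These differences are therefore given as a description, with no test.

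Expression was measured on 5 Affymetrix arrays of sorted bone marrow stem and progenitor cells from C57BL/6 mice. The control group was 3 samples from control rtTA mice, which are labelled with the doxycycline-dependent transactivator, and the other group was 2 samples from MSI2-inducible mice, in which a transgene of the RNA-binding protein MSI2 can be switched on. Whether these mice also carry rtTA is not in the labels, which give no age, no doxycycline schedule, no promoter of the transactivator and no word on whether each array is its own mouse, so the spread between arrays may be partly technical. Sample labels and series text differ on Sca1, present in the first and absent in the second, and the gate is therefore uncertain. All values are log2 of the deposited, already normalized intensities, differences are MSI2-inducible minus control, and 5 arrays give each value a limited precision. In bulk RNA, fewer cells of a type and less RNA per cell cannot be told apart.

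Zbtb16 encodes PLZF, a transcription factor with a BTB domain that recruits corepressors and histone deacetylases and with zinc fingers that bind DNA. It is known in blood for its part in stem cells, in innate-like lymphocytes such as NKT cells and as a fusion partner of the retinoic acid receptor in leukaemia. Cadm1 is an immunoglobulin-type adhesion molecule that binds itself, nectins and the lymphocyte receptor Crtam, and it is known in mast cells and dendritic cells. Sik3 is a salt-inducible kinase that is switched on by the kinase Lkb1 (gene Stk11), is held in check by cAMP signalling, and holds CRTC coactivators and class IIa histone deacetylases outside the nucleus.

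The start of Sik3 lies beside that of Pafah1b2, which is read in the opposite direction, and the letters between both starts are shown because the values of these 2 genes are set side by side further on. The stretch of 129 bases is at chr9:46012691-46012819 on the plus strand of GRCm38.p6, from RefSeq, with each match to the CREB half-site TGACG in capitals.
Sik3 upstream: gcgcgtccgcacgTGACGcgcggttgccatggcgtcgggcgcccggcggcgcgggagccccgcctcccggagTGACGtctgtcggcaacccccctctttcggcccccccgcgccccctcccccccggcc
TGACG was found 2 times, searched on both strands, and was present in 12.1% of 32851 stretches of the same length directly before an annotated gene start. The full palindrome TGACGTCA, which contains the half-site, was in 1.29% of them, the GC box GGGCGG in 27.2% and TATAAA in 6.78%, and none of these 3 was found in the stretch shown. A match is a description of letters and not a binding site. Promoter sequence was matched for 1 of the 3 genes, Sik3.

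All 3 Zbtb16 probe sets were higher in both MSI2-inducible arrays than in every control array. The probe set with the highest mean, 1439163_at, read 6.17, 5.67 and 5.88 in control replicates 1, 2 and 3 and 8.19 and 8.81 in MSI2-inducible replicates 1 and 2. The groups were well separated, since the lowest MSI2-inducible value was 2.02 above the highest control value. The means were 5.91 ± 0.25 (SD, n = 3) and 8.50 ± 0.44 (SD, n = 2), a difference of 2.59 (SE 0.27), or 6.02-fold. Over 18193 genes, each represented by its probe set with the highest mean, 12 genes had a higher difference than Zbtb16.

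The other two Zbtb16 probe sets had smaller differences. Probe set 1419874_x_at, whose suffix marks probes that can also match other sequences, read 6.20, 6.41 and 6.10 in the control replicates and 7.61 and 8.04 in the MSI2-inducible replicates. The groups did not overlap, and the difference was 1.59 (SE 0.22). Probe set 1427638_at read 5.65, 5.55 and 4.27 in the control replicates and 5.84 and 7.13 in the MSI2-inducible replicates. Here MSI2-inducible replicate 1 was only 0.19 above the highest control array, and control replicate 3 stood below the other two. The difference of this probe set was 1.33 (SE 0.57), but 0.68 without MSI2-inducible replicate 2 and 0.88 without control replicate 3.

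All 4 Cadm1 probe sets had a higher mean in MSI2-inducible cells, as had 49.8% of all probe sets, and in 3 of them the groups did not overlap. The probe set with the highest mean, 1431611_a_at, a suffix for probe sets that read several transcripts of one gene, read 4.87, 5.18 and 5.04 in the control replicates and 6.28 and 6.49 in the MSI2-inducible replicates. Both MSI2-inducible arrays were above every control array by at least 1.10. The means were 5.03 ± 0.16 (SD, n = 3) and 6.38 ± 0.15 (SD, n = 2), a difference of 1.35 (SE 0.19), or 2.56-fold.

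Probe set 1417378_at read 2.47, 2.72 and 3.06 in the control replicates and 4.25 and 4.93 in the MSI2-inducible replicates, a difference of 1.84 (SE 0.29). Probe set 1417376_a_at read 3.25, 2.93 and 2.90 against 4.13 and 4.36, a difference of 1.22 (SE 0.20). In both, the 2 groups were apart, with MSI2-inducible replicate 2 the highest array. Probe set 1417377_at read 2.78, 2.44 and 2.78 against 2.74 and 2.998, and its groups overlapped, with a difference of 0.20 (SE 0.21) that was no larger than its error. The median over all probe sets was 5.57. The means over the 5 arrays of 1417376_a_at, 1417378_at and 1417377_at were below it, and that of 1431611_a_at was at it, with both MSI2-inducible arrays above. The sizes of these differences depend on how low signals are treated. When 16 intensity units were added before the log, the difference of 1431611_a_at was 1.03 in place of 1.35, that of 1417378_at 0.83 in place of 1.84 and that of 1417376_a_at 0.53 in place of 1.22. The small difference of 1417377_at was 0.07 without MSI2-inducible replicate 2 and 0.09 without control replicate 2.

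The 4 Sik3 probe sets did not move together. Probe set 1441947_x_at, which has the highest mean, read 8.70, 8.75 and 8.65 in the control replicates and 10.22 and 9.91 in the MSI2-inducible replicates. The control arrays were within 0.10 of each other and both MSI2-inducible arrays were above them by at least 1.16. The means were 8.70 ± 0.05 (SD, n = 3) and 10.07 ± 0.22 (SD, n = 2), a difference of 1.37 (SE 0.19), or 2.58-fold. This is the one Sik3 probe set whose suffix marks probes that can match other sequences, and the part of such sequences in its signal was not tested.

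Probe set 1446136_at went the other way. It read 5.10, 5.40 and 5.19 in the control replicates and 4.34 and 4.66 in the MSI2-inducible replicates, a difference of -0.73 (SE 0.20), or -0.47 with 16 units added before the log, with groups that did not overlap. Probe set 1460439_at read 6.24, 6.34 and 5.55 against 6.36 and 6.87, where the lowest MSI2-inducible array was 0.02 above the highest control array. Its difference was 0.57 (SE 0.32), and 0.32 without either MSI2-inducible replicate 2 or control replicate 3. Probe set 1455437_at read 7.20, 6.16 and 6.95 against 7.40 and 7.12, with overlapping groups and a difference of 0.49 (SE 0.35), which was 0.18 without control replicate 2. The mean of the 4 Sik3 differences was 0.42, against 1.15 for Cadm1 and 1.84 for Zbtb16.

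Over the 11 probe sets, 8 had both MSI2-inducible arrays above all controls and 1 had both below, where 9.26% and 9.66% of all 45037 probe sets tested were so placed. These are the values that led to the choice of the genes, and nothing is read from the counts. Within the MSI2-inducible group, replicate 2 was above replicate 1 in 3 of 3 Zbtb16 and 4 of 4 Cadm1 probe sets and in 2 of 4 Sik3 probe sets. The 11 differences kept their sign with each of the 5 arrays left out in turn. Without MSI2-inducible replicate 1, the differences of the probe sets with the highest means were 2.90 for Zbtb16, 1.46 for Cadm1 and 1.21 for Sik3, and without replicate 2 they were 2.28, 1.25 and 1.52.

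**Figure D1:**
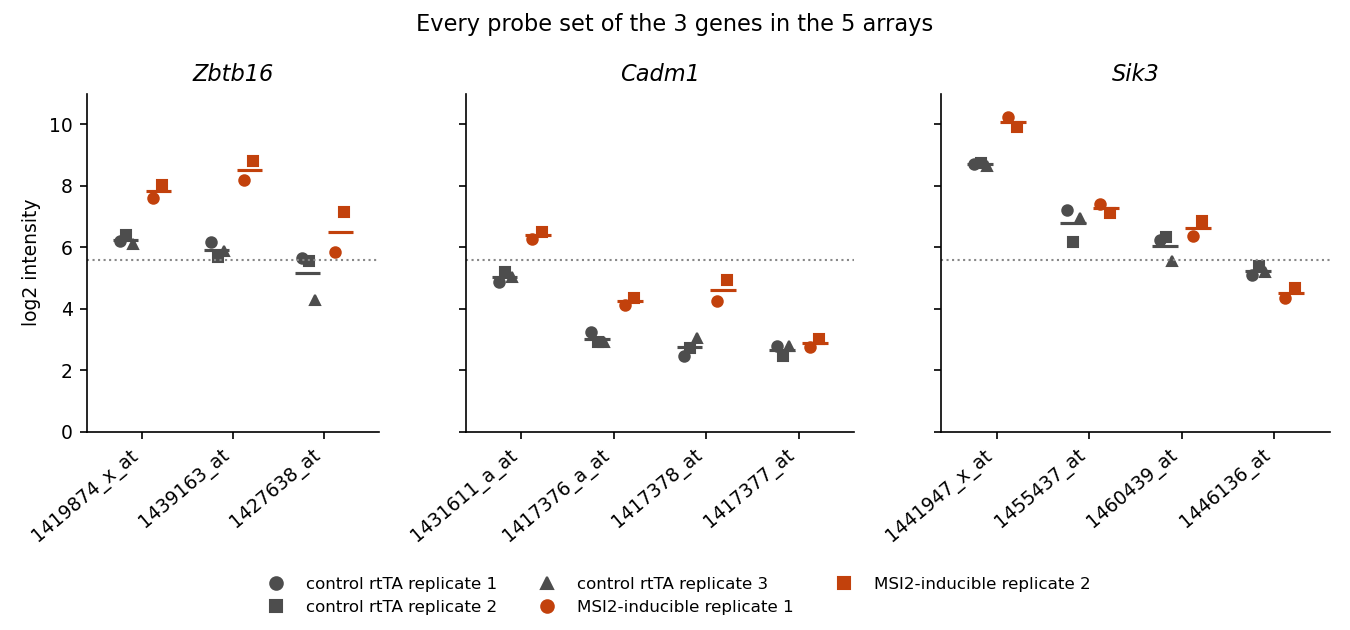
Log2 intensity (vertical axis) of each of the 11 probe sets of Zbtb16, Cadm1 and Sik3 (horizontal axis) in 3 control rtTA arrays (grey) and 2 MSI2-inducible arrays (orange), with symbols for replicate number, bars for group means and a dotted line at the median of all probe sets (5.57). All Zbtb16 probe sets and 3 of 4 Cadm1 probe sets were higher in both MSI2-inducible arrays, while Sik3 probe set 1446136_at was lower and 1441947_x_at higher.

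The genes around the 3 members were then compared, to see whether the stretch as a whole was higher. In the RefSeq gene table of GRCm38.p6, used here for names and order, 29 genes and transcripts begin between Sik3 and Cadm1 and 17 between Cadm1 and Zbtb16. With the 10 next to them on each side this makes 66 neighbours, of which 26 had a value. Of these 26 genes, 0 passed limma's test in either direction at an adjusted p of 0.05, where 0.022% of all 18193 genes passed, and 3 had an unadjusted p under 0.05, as had 5.64% of all genes. Their median difference was 0.09, and -0.02 without MSI2-inducible replicate 1, against 0.00 over all genes. The groups did not overlap for 3 higher and 3 lower neighbours, 11.5% each, against 9.27% and 9.39% of all genes.

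Between Sik3 and Cadm1, the 9 measured genes had differences from -0.12 to 0.48. Among them are the apolipoprotein genes Apoa1 (-0.12), Apoa4 (0.02), Apoa5 (0.16) and Apoc3 (0.20), known from liver and gut. Zpr1, a zinc finger protein, read 8.20, 8.01 and 8.23 in the control replicates and 8.64 and 8.62 in the MSI2-inducible replicates. Its groups did not overlap, with a difference of 0.48 (SE 0.17, limma adjusted p 0.870), and its second probe set differed by 0.08.

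Between Cadm1 and Zbtb16, the 6 measured genes had differences from -1.60 to 1.11. Nxpe4, of the neurexophilin and esterase domain family, read 4.10, 5.01 and 4.30 in the control replicates and 3.60 and 2.14 in the MSI2-inducible replicates, a difference of -1.60 (SE 0.49, limma adjusted p 0.867). Its relative Nxpe2 differed by 1.11 with overlapping groups. The genes nearest to Zbtb16 on that side barely differed. The differences were 0.17 for Nnmt, a nicotinamide methyltransferase, 0.14 for Rbm7, an RNA-binding subunit that works with the nuclear exosome, and 0.09 for Rexo2, an oligoribonuclease. On the far side of Zbtb16, the serotonin receptor genes Htr3a and Htr3b differed by 0.09 and 0.19.

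On the far side of Sik3, Pafah1b2 encodes a catalytic subunit of a platelet-activating factor acetylhydrolase, and its start is separated from that of Sik3 by the sequence shown above. Its probe set with the highest mean read 11.15, 11.12 and 11.12 in the control replicates and 10.94 and 11.08 in the MSI2-inducible replicates. Both MSI2-inducible arrays were slightly below the controls, with a difference of -0.12 (SE 0.16, limma adjusted p 0.955), and its 3 other probe sets differed by 0.37, 0.13 and -0.35. Tagln, the actin-binding protein transgelin, differed by 1.07 (SE 0.33, limma adjusted p 0.870), with 6.29, 5.67 and 5.81 against 6.56 and 7.43. Rnf214, a RING finger protein, differed by -0.61 (limma adjusted p 0.912) and its other probe sets by -0.08, -0.90 and -1.48. Its 2 lowest probe sets had MSI2-inducible arrays below every control array. Bace1, on the same side, differed by -0.25 (limma adjusted p 0.921) and its other probe sets by -1.54, -0.68 and -0.08. All but the last of these had both MSI2-inducible arrays below every control array.

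Across the 47 probe sets of these neighbours, 5 (10.6%) had both MSI2-inducible arrays above every control array and 9 (19.1%) below, against 9.26% and 9.66% of all probe sets, and 0 passed limma's test with every probe set on its own, where 0.00444% of all probe sets passed (7 of the 47 had an unadjusted p under 0.05, against 5.68% of all).

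**Figure D2:**
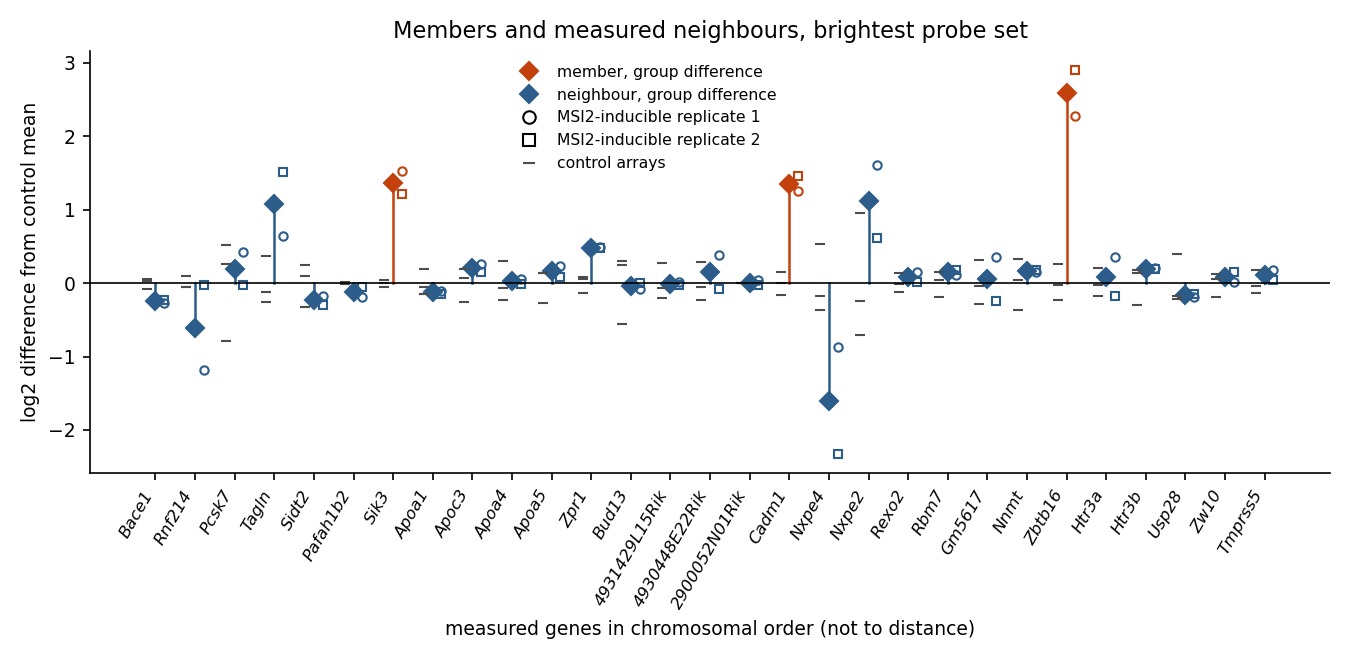
Log2 difference from the control mean (vertical axis) for the 3 members (orange) and 26 measured neighbours (blue), in chromosomal order and not to distance (horizontal axis), by the probe set with the highest mean. Diamonds are group differences, open symbols the 2 MSI2-inducible arrays and dashes the control arrays. Zbtb16 stands at 2.59, Sik3 at 1.37 and Cadm1 at 1.35, while neighbours lie between -1.60 and 1.11.

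To show which genes differed in a like way and by a like amount, each gene was centred on its control mean. It was then set against the members by the root mean square difference over the 5 arrays. This measure is in log2 units, 0 is an identical profile, and the size of a difference counts as well as its pattern. Nearest to Zbtb16 among genes with a full name were Phlda1 (0.26), a pleckstrin-like domain protein, the adhesion gene Nectin3 (0.39), Kynu (0.39), an enzyme of tryptophan breakdown, Egr2 (0.45), an early response transcription factor, and the chemokine Cxcl10 (0.51). Phlda1 read 4.87, 4.84 and 4.52 in the control replicates and 6.69 and 7.42 in the MSI2-inducible replicates, so that replicate 2 was the highest array, as for Zbtb16. Kynu, Egr2 and Cxcl10 were highest in MSI2-inducible replicate 1. Kynu has another probe set, at -0.91, and the 5 other Nectin3 probe sets differed by 0.04 to 1.19.

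Counted from Zbtb16, Cadm1 was rank 40 (0.83) and Sik3 rank 41 (0.85) of 18192 genes. Counted from Cadm1, Sik3 was rank 3 (0.19), after Ier3 (0.08), an early response gene, and Depdc7 (0.18). Nearest to Sik3 were Erdr1 (0.10), Zfp438 (0.14) and Ier3 (0.16), and Cadm1 was rank 8. Zbtb16 was far down both orders, at rank 6203 counted from Cadm1 and 6952 counted from Sik3. Its larger difference (2.59, against 1.35 for Cadm1 and 1.37 for Sik3) enters these ranks, so they do not show an unlike pattern. These ranks are a description over 5 arrays, and that of Sik3 is for 1441947_x_at alone, since its other probe sets differed by -0.73 to 0.57.

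**Figure D3:**
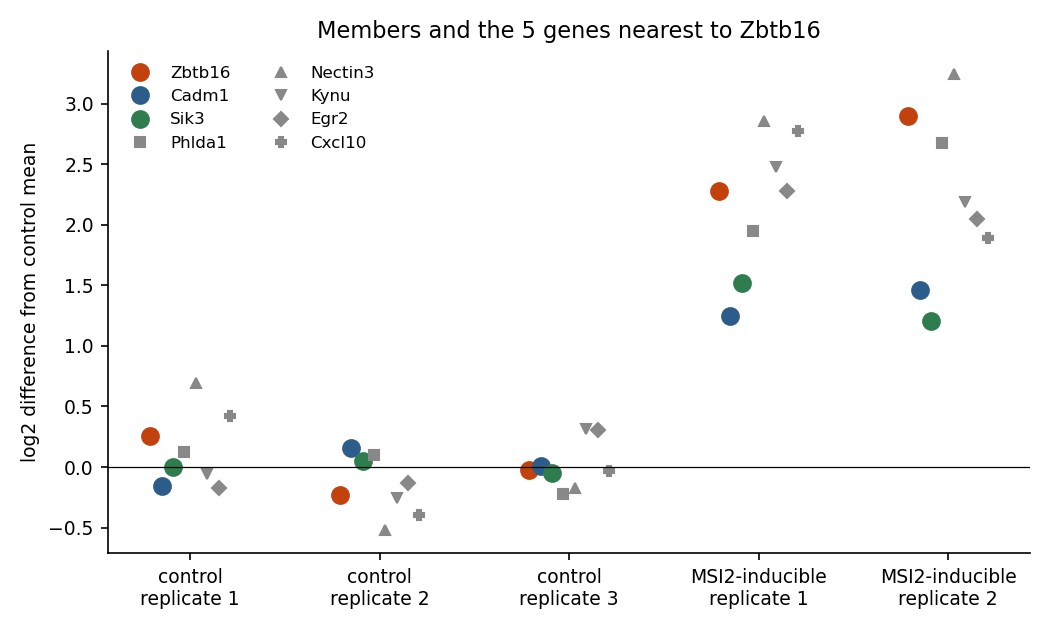
Log2 difference from the control mean (vertical axis) in each of the 5 arrays (horizontal axis) for Zbtb16, Cadm1 and Sik3 (coloured circles) and the 5 named genes nearest to Zbtb16 (grey symbols), by the probe set with the highest mean. In MSI2-inducible replicate 2 Zbtb16 was at 2.90, Cadm1 at 1.46 and Sik3 at 1.21.

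Genes tied to Zbtb16 were taken from lists of its corepressors and partners, of its protein family, of glucocorticoid response genes, since Zbtb16 is known to be induced by glucocorticoids, and of innate lymphocytes. Of the 15 measured corepressors and partners, 0 passed limma's test and 0 had an unadjusted p under 0.05, against 0.022% and 5.64% of all genes. The median difference was -0.10, or -0.21 without MSI2-inducible replicate 2 and -0.04 without replicate 1. The groups were apart and lower for 5 of them (33.3%), Gata1, Foxo1, Gfi1, Hdac5 and Sin3b, against 9.39% of all genes. Histone deacetylase genes Hdac1 (0.13) and Hdac3 (0.11) differed by less than their standard errors (0.20 and 0.24). The erythroid factor Gata1 read 7.61, 7.52 and 7.09 against 6.91 and 6.85, a difference of -0.53 (limma adjusted p 0.886), and the forkhead factor Foxo1 differed by -0.50. The 4 probe sets of Foxo1 ranged from -0.50 to 0.41, and the 5 of Sin3b from -0.29 to 0.37.

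Of 33 other BTB zinc finger genes, 0 passed limma's test and 2 had an unadjusted p under 0.05, against 0.022% and 5.64% of all genes. The median was 0.02. The highest was Bcl6, a repressor of lymphocyte and myeloid genes, at 7.04, 6.79 and 7.02 in the control replicates and 8.03 and 7.65 in the MSI2-inducible replicates. Its groups did not overlap, with a difference of 0.89 (SE 0.20, limma adjusted p 0.616) and of 0.36 for its second probe set. Zbtb40 was next at 0.69. The lowest were Bcl6b, at -0.72 (limma adjusted p 0.870), and Zbtb20, at -0.62.

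Of 20 glucocorticoid response genes, 16 had a higher and 4 a lower mean, where 50.4% of all genes were higher, and the median was 0.40. Limma's test was passed by 0, and 4 had an unadjusted p under 0.05, against 0.022% and 5.64% of all genes. The median was 0.26 without MSI2-inducible replicate 1 and 0.58 without replicate 2. The groups were apart and higher for 5 of them (25.0%) against 9.27% of all genes. Nfkbia, an inhibitor of NF-kappaB, differed by 1.16 (SE 0.23, limma adjusted p 0.508), and the kinase gene Sgk1 by 1.16 with overlapping groups, at 9.19 in MSI2-inducible replicate 1 and 7.17 in replicate 2. Lcn2, which is also a neutrophil marker here, was at 11.47 and 6.94 in these arrays. Fkbp5 differed by 0.30 (SE 0.16) with groups apart, and its 3 probe sets ranged from -0.67 to 0.30. Tsc22d3 differed by 0.38 (SE 0.29) with overlapping groups. The others apart and higher were Nfkbia, Rgs2 (0.69), Dusp1 (0.60) and Zfp36 (0.56). Apart and lower was 1 gene, Pdk4 (5.0%, against 9.39% of all genes). Pdk4, a kinase of fuel use, was the lowest at -0.97 (limma adjusted p 0.873), and the transcription factor Klf15 was at -0.29.

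Of 19 measured innate lymphocyte genes, 0 passed limma's test and 3 had an unadjusted p under 0.05, against 0.022% and 5.64% of all genes. The median was 0.06, or -0.05 without MSI2-inducible replicate 1. Nfil3, a transcription factor of innate lymphocyte precursors, read 6.04, 4.81 and 6.35 in the control replicates and 7.59 and 7.20 in the MSI2-inducible replicates, a difference of 1.66 (SE 0.47, limma adjusted p 0.826). The receptor gene Klrk1 differed by 1.19, with 5.53 in MSI2-inducible replicate 1 and 3.57 in replicate 2. The 2 subunits of the interleukin-18 receptor were lower, with differences of -0.88 for Il18r1 and -0.91 for Il18rap (limma adjusted p 0.792 and 0.577). Both had MSI2-inducible arrays below every control array, but neither passed the test. They were the 2 genes of the list (10.5%) apart and lower, against 9.39% of all genes. Apart and higher were 4 (21.1%), Nfil3, Klrk1, Id2 and Itgb7, against 9.27% of all genes.

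For Cadm1, the 10 measured relatives and ligands had a median difference of -0.17, which was 0.02 with the mean of probe sets and -0.06 without MSI2-inducible replicate 2. Limma's test was passed by 0, against 0.022% of all genes, and 1 had an unadjusted p under 0.05, against 5.64%. That gene was Nectin3, which read 3.51, 2.29 and 2.64 in the control replicates and 5.67 and 6.06 in the MSI2-inducible replicates, a difference of 3.05 (SE 0.38, limma adjusted p 0.203). Its control mean of 2.81 was low beside the median of 5.57, and its other probe sets differed by only 0.04 to 1.19. The ligand Crtam differed by 0.03 (SE 0.21), the paralogue Cadm4 by 0.28, and Nectin2 and the lymphocyte receptor Cd96 by -0.59 and -0.67. Of 14 measured partners of the Cadm1 tail, which are scaffold proteins at the membrane, 0 passed limma's test and 1 had an unadjusted p under 0.05. Over all genes these shares were 0.022% and 5.64%. The mean was lower for 10 partners and higher for 4, where 50.4% of all genes were higher. The median was -0.05, but -0.21 without MSI2-inducible replicate 2 and 0.02 without replicate 1. They ranged from -0.70 for Epb41l1 and Mpp3 to 0.30 for Pdlim5 and 0.38 for Epb41l2.

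For Sik3, the 17 Sik and Lkb1 family kinases had a median difference of 0.17, with 14 of them higher in mean, where 50.4% of all genes were. Limma's test was passed by 0, and 3 had an unadjusted p under 0.05, against 0.022% and 5.64% of all genes. The median was 0.07 without control replicate 2 and 0.27 without control replicate 1. The paralogue Sik1 read 7.54, 8.45 and 7.93 in the control replicates and 9.24 and 8.74 in the MSI2-inducible replicates. The difference was 1.02 (SE 0.32, limma adjusted p 0.870), and its second probe set differed by -0.51. The paralogue Sik2 differed by 0.67 (SE 0.24, limma adjusted p 0.870), with no overlap of the groups and 0.17 for its lowest probe set. The activating kinase Stk11 differed by 0.19 (SE 0.20), and Prkaa2, a catalytic subunit of AMP-activated kinase, by -0.88 (limma adjusted p 0.635). The 3 probe sets of Prkaa2 ranged from -0.88 to 0.28, and the 2 of Stk11 from -0.17 to 0.19. Stradb, a cofactor of Lkb1, differed by -0.29.

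Of 22 Sik substrates and their target genes, 0 passed limma's test and 3 had an unadjusted p under 0.05, against 0.022% and 5.64% of all genes. The mean was higher for 16 and lower for 6. The median was 0.14, but 0.06 without MSI2-inducible replicate 2 or after dropping low values. The groups were apart and higher for 4 (18.2%) and apart and lower for 1 (4.5%), against 9.27% and 9.39% of all genes. Nr4a1, a nuclear receptor and target of CRTC coactivators, read 5.59, 5.83 and 5.56 in the control replicates and 8.94 and 7.86 in the MSI2-inducible replicates, a difference of 2.74 (SE 0.33, limma adjusted p 0.195). The coactivator gene Crtc3 differed by -0.11 (SE 0.16) and the cytokine Il10 by 0.91, from a control signal of 2.40 to 2.47. Pde4d, a cAMP phosphodiesterase, differed by -0.57, and its other probe set by 0.09. Pde4b differed by 0.79 (SE 0.18, limma adjusted p 0.616) with groups apart, and its 6 probe sets ranged from -0.21 to 0.79. Over all lists together, 150 genes were measured, 87 of them higher in mean, where 50.4% of all genes were. The test was passed by 0, against 0.022% of all genes, and 17 had an unadjusted p under 0.05, against 5.64%. The groups were apart and higher for 19 (12.7%) and apart and lower for 16 (10.7%), against 9.27% and 9.39% of all genes.

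**Figure D4:**
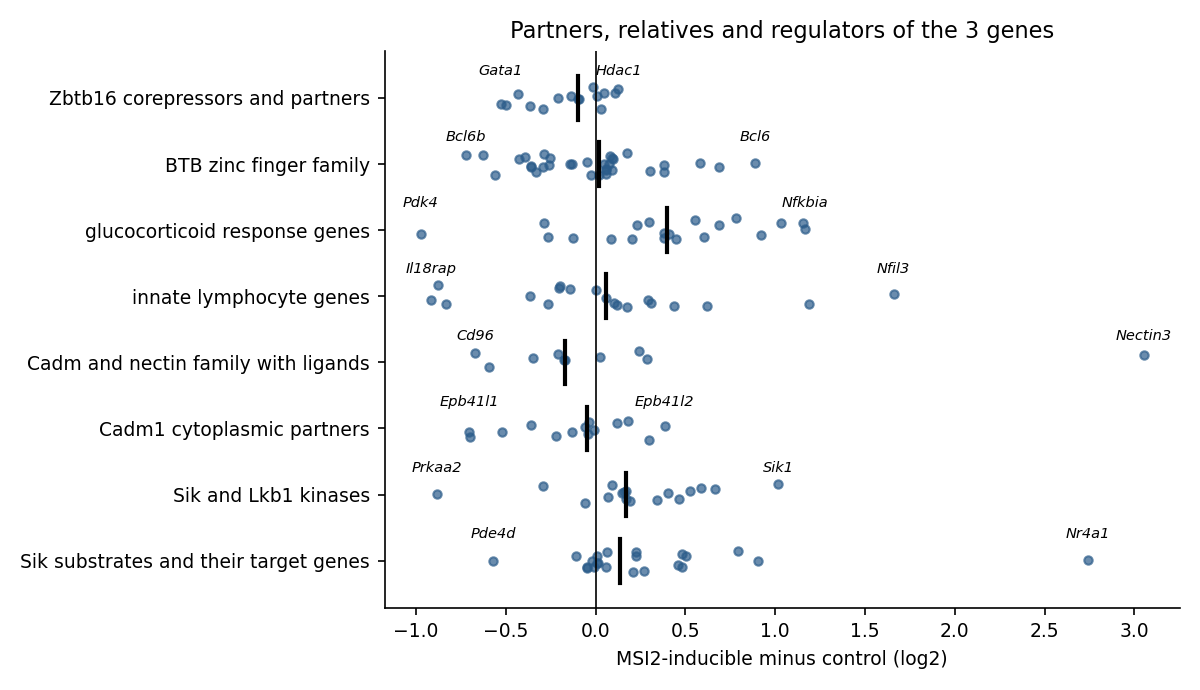
Difference between groups in log2 units (horizontal axis) for each measured gene of the 8 lists of partners, relatives and regulators (vertical axis), with a black bar at each median and the highest and lowest gene of each list named. Each gene is shown by its probe set with the highest mean. Medians lie between -0.17 and 0.40, and Nectin3 (3.05) and Nr4a1 (2.74) stand apart.

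Other cells in a sort can carry these genes, so marker lists were set beside the members, with the summed intensity of each list on the linear scale. T, NK and NKT cell markers, of which 12 were measured, summed to 1809 to 2380 in control and 1602 to 2040 in MSI2-inducible arrays. The T cell receptor complex genes Cd3d, Cd3e and Cd3g were below the median signal (5.57) in every array. Mast cell markers (10 measured) summed to 2231 to 2896 in control and 2472 to 2883 in MSI2-inducible arrays, with Cma1, Mcpt4 and Tpsb2 under that median in every array. Neither sum was higher in MSI2-inducible arrays than in all controls. In the mast cell list the highest signals are those of Gata2 (control mean 10.32) and Kit (9.40), which are also sorting markers. In the T, NK and NKT cell list they are those of Cd247 (9.51), Nkg7 (9.44) and Thy1 (8.55). The sums therefore say little about the weaker genes of either list. Of the 12 T, NK and NKT cell markers, 3 (25.0%) had both MSI2-inducible arrays above all controls, against 9.27% of all genes. The chemokine Ccl5 read 5.49, 4.61 and 5.36 in the control replicates and 6.86 and 6.57 in the MSI2-inducible replicates, a difference of 1.56 (limma adjusted p 0.508). The others were the receptor gene Klrd1, at 0.70, and Cd3g, at 0.18, and the median of the list was -0.02.

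B cell markers (7 measured) did sum higher, 746 and 1023 against 324 to 652, with Ms4a1, Pax5 and Ebf1 under the median in every array. Of the 7, 1 (14.3%) had both MSI2-inducible arrays above every control array, against 9.27% of all genes. It was Vpreb1, at a difference of 2.22 (SE 1.04, limma adjusted p 0.911). The mean was lower for 3 of the 7. Vpreb1 had the highest signal of the list in both MSI2-inducible arrays, so the B cell sums say little about the other genes. Mature neutrophil markers summed to 62444 in MSI2-inducible replicate 1 and 11743 in replicate 2, against 14228 to 26635 in control arrays, and erythroid markers to 5514 and 2362 against 1840 to 2496. Macrophage markers summed to 1889 and 1097 against 1093 to 1391, and endothelial and stromal markers to 324 and 642 against 698 to 1140, with 3 of 8 and 2 of 8 genes under the median in every array. All 9 neutrophil markers had a higher mean, with 0 apart. Apart and higher were 1 macrophage marker (12.5%), Ccr2, and 1 erythroid marker (14.3%), Epor, against 9.27% of all genes. They differed by 1.67 and 1.16 (limma adjusted p 0.226 and 0.616), and the 4 Ccr2 probe sets by 0.22 to 1.79. Apart and lower were 2 stromal markers (25.0%), Cxcl12 and Lepr, against 9.39%. RNA from T, NK, NKT, mast, B or erythroid cells, neutrophils, macrophages or stroma as a part of the members' differences was not tested.

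Of the sorting markers, 10 were measured and 0 lay under the median in every array. They summed to 12720 to 13946 in control arrays and 10624 and 14589 in MSI2-inducible arrays. The mean was lower for 8 and higher for 2, where 50.4% of all genes were higher. Apart and lower was 1 marker, Slamf1, against 9.39% of all genes. Slamf1 read 7.36, 7.99 and 7.66 in the control and 5.57 and 7.22 in the MSI2-inducible replicates. Its difference was -1.27 (SE 0.49, limma adjusted p 0.883), and its 3 probe sets ranged from -1.27 to -0.76. Cd27 (control mean 11.14) and Ptprc (11.07) had the highest signals, so the sums say little about Slamf1. The Sca1 gene had no value here. MSI2-inducible replicate 1 stood apart from the other arrays on the first principal component, which held 41.8% of the variance. The mouse Msi2 gene differed by -0.51 (SE 0.20, limma adjusted p 0.883), and as the sequence of the transgene is not in the labels, this does not check them. Array medians ran from 46.4 to 48.3 intensity units.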

How the data were processed

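RNA of 5 samples was amplified linearly and hybridized to Affymetrix mouse arrays, per the labels. The authors deposited linear intensities, 1 per probe set, normalized between arrays. RMA, affy and R 2.11.0 are named in the submitters' processing notes, and how values returned from logs is not stated there. The log2 was taken without a pseudocount.

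Symbols came from the platform annotation and were updated by Entrez ID. Of 45101 probe sets, 64 were controls, 34945 others had 1 symbol, 932 had several, and 34741 matched the gene table. The brightest probe set represented each of 18193 genes.

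MSI2-inducible and control arrays were compared by limma 3.58.1 (R 4.3.3), with group alone in the model and neither trend nor robust moderation. P-values are two-sided, with Benjamini-Hochberg adjustment across genes at a threshold of 0.05. The fit was tested on simulated data. Standard errors of single member probe sets came from a like fit over 45037 probe sets.

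Members, lists and alternatives were chosen with earlier results of these data known. Named were all member probe sets, the genes most like them (clone names passed over), a set of partners fixed by name, list and neighbouring genes past the test or else with the 2 highest and 2 lowest differences, and Msi2. Genes named beyond this were chosen after their values were seen. Of the fixed partners, Ncor1 was not analysed here. The labels do not pair samples, and same-numbered arrays had correlations of deviations of 0.134 and 0.099. Alternatives covered normalization, pseudocount, probe set choice, low values, variance model, weights, block and left-out arrays. Figures used matplotlib 3.10.9.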

Additional observations from a re-analysis of the deposited data

How the results depend on the processing

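The differences of Zbtb16 (2.59), Cadm1 (1.35) and Sik3 (1.37) stayed above 0 under every alternative run. With the mean of probe sets they were 1.84, 1.15 and 0.42, and with 16 units added before the log Cadm1 was 1.03. By its brightest probe set without the _x_at suffix, chosen after seeing the data, Sik3 was 0.49, and 0.18 without control replicate 2. With an array left out, Zbtb16 ranged from 2.28 to 2.90, Cadm1 from 1.25 to 1.46 and Sik3 from 1.21 to 1.52. Genes past limma's test numbered 3 higher and 1 lower. Higher genes numbered 1 with array weights, 1 with the pseudocount and 0 with replicate number as a block, and lower genes 0 with the pseudocount, 0 with the replicate block, 0 with probe sets tested singly, and 2 after dropping low values or with quantile normalization once more. Leaving out an array gave 0 to 0 higher and 0 to 0 lower genes, with 726 to 2273 genes at an unadjusted p under 0.05. With the replicate block the differences were 2.58, 1.36 and 1.34. Neighbours and list members past the test numbered 0 in every setting. Of the 5 genes nearest to Zbtb16, 3 were shared with the pseudocount. Over all alternatives the median difference changed sign for BTB zinc finger genes (-0.04 to 0.04), the Cadm and nectin family (-0.21 to 0.02), Cadm1 tail partners (-0.21 to 0.03), innate lymphocyte genes (-0.05 to 0.10) and neighbours (-0.02 to 0.14). The cause was not tested. Signal near or below the median limits the Cadm1 values.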
